A study of Drosophila melanogaster with 20 samples.

Results

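The odorant-binding proteins (Obps) of Drosophila melanogaster were taken as every gene whose symbol begins with Obp and a digit, which gave 51 members among the 14081 genes of the deposited tables. The study sequenced RNA of whole larvae that were 4 days old at 25 °C. There were 5 libraries in each of 4 groups, all in the wDah background: the engineered lines DmSAMC.I172G, DmSAMC.P223L and DnSAMC.M1fs;M39* (here SAMC-null), and a control. The altered gene encodes the mitochondrial carrier of S-adenosylmethionine (SAM), the methyl donor of the cell, and the labels name I172G a mild mutant and P223L and SAMC-null severe mutants. The number of independently engineered lines behind each genotype, and whether the 5 libraries came from separate cultures, are not given in the sources used here, so p-values measure the spread between these libraries only.

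Obps are small secreted proteins held together by disulphide bridges around a hydrophobic pocket. Many are made by support cells of insect smell and taste sensilla and released into the lymph that bathes the sensory neurons, where they bind odorants and tastants. Others are made outside the sense organs, in the fat body, in glia and in the male accessory gland, and for most of these the ligand is not known. The Minus-C subgroup lacks a conserved disulphide bridge, the Plus-C subgroup carries extra cysteines, and dimer Obps hold a pair of Obp domains in a single chain.

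Values are the authors' normalised read counts per gene, which share 1 scale over the 20 libraries. A library's normalised counts summed to between 22092100 and 36610400. Transcripts of the carrier gene, CG4743, averaged 171.5 ± 22.7 in I172G, 207 ± 24.6 in P223L, 112 ± 12.8 in SAMC-null and 125 ± 20.2 in control larvae (SD, n = 5 each), so the transcript level does not separate the SAMC-null larvae from the control. Control replicate 4 stood apart from its group, with a mean correlation over all genes of 0.969 with the other control libraries, where the other 4 controls had 0.979 to 0.982. Results that change without it are given with the change.

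Of the 51 members, 24 had a mean under 10 normalised counts in every group, 15 had a highest group mean of 10 to under 100, 5 of 100 to under 1000, and 7 of 1000 or more. A member was tested where 5 or more of the 10 libraries of a comparison reached 10 normalised counts, which took in 27 members in at least 1 comparison and 17 in all 6. The 24 members tested nowhere were Obp8a, Obp19a, Obp19b, Obp19c, Obp19d, Obp22a, Obp46a, Obp47b, Obp50a, Obp50d, Obp50e, Obp56f, Obp56g, Obp57a, Obp57b, Obp57c, Obp57e, Obp59a, Obp69a, Obp83a, Obp83b, Obp84a, Obp85a and Obp93a. They include Obp83a and Obp83b, the abundant Obps of the adult antenna, and Obp59a, which serves humidity sensing in adults. The members lie on 2R (29), 3R (12), X (6), 2L (2) and 3L (2).

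A single gene, Obp99b, supplied most Obp transcripts in 2 of the 4 groups. It held 89.5 ± 1.08% of all Obp counts in I172G, 0.0600 ± 0.0822% in P223L, 0.0201 ± 0.0156% in SAMC-null and 91.5 ± 1.14% in control larvae (SD, n = 5 each). The whole family made up 0.604 ± 0.0629% of all normalised counts in I172G, 0.0346 ± 0.00284% in P223L, 0.0332 ± 0.00278% in SAMC-null and 0.531 ± 0.113% in control larvae. With Obp99b left out, the summed count of the other 50 members was 21779 ± 1354 in I172G, 8837 ± 830 in P223L, 7413 ± 573 in SAMC-null and 14985 ± 1691 in control larvae. The number of members at 10 counts or more was nearly the same in the lines, with means of 20.6, 20.8 and 20.8 per library in I172G, P223L and SAMC-null, against 23.4 in control.

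**Figure D1:**
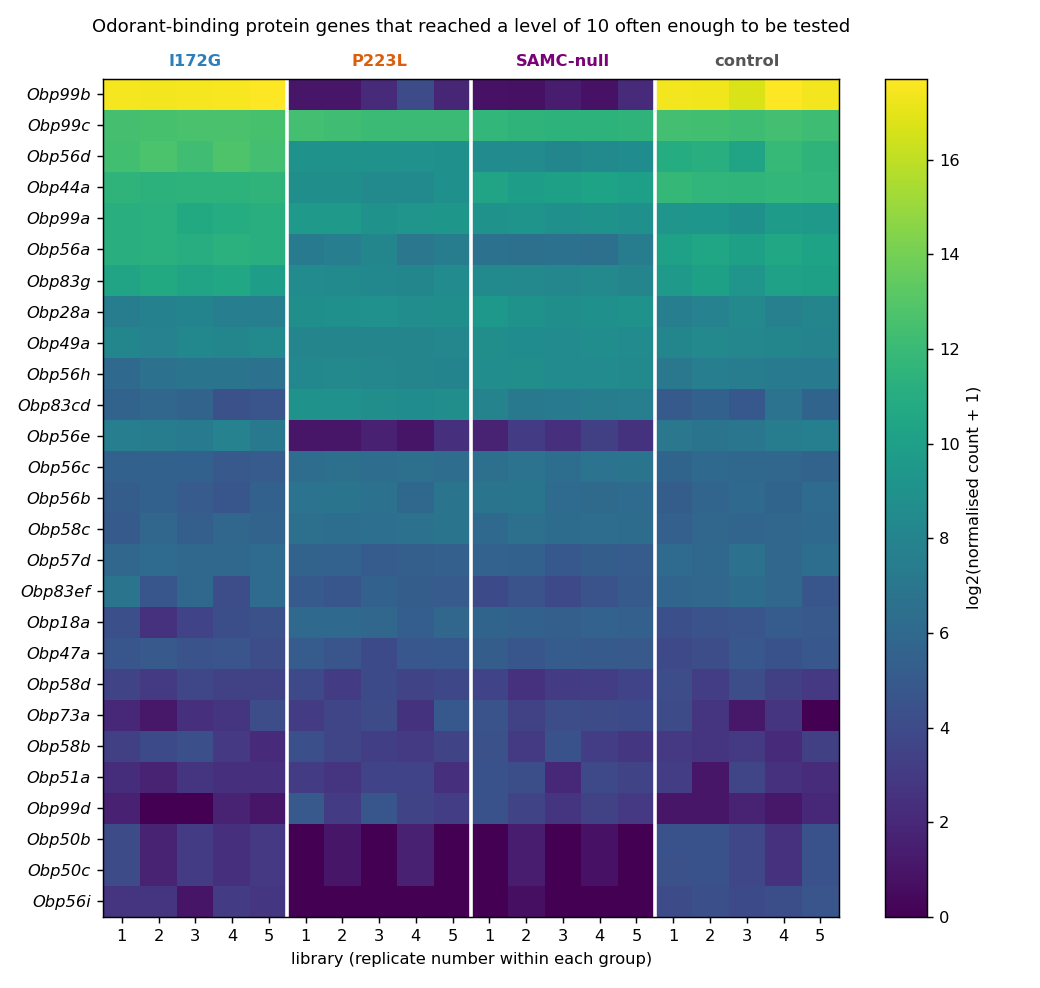
Normalised counts of the 27 tested Obp members (rows) in the 20 libraries (columns, grouped as I172G, P223L, SAMC-null and control), coloured on the log2(value + 1) scale. Obp99b is at 108178 or more in every I172G and control library and at 16.5 or less in every P223L and SAMC-null library.

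Levels of different genes were compared per kilobase of exon. In I172G larvae Obp99b (315420 counts per kilobase), Obp99c (8977) and Obp56d (6434) stood apart from one another and from the next members, Obp56a (4210) and Obp99a (3486), which overlapped. In P223L larvae Obp99c (7042 per kilobase), Obp99a (1087) and Obp28a (794) stood apart in that order, and the next 7, from Obp83g (587) to Obp56a (341), each overlapped with its neighbour. In SAMC-null larvae Obp99c (4443 per kilobase) stood first, and Obp44a (1038), Obp28a (928) and Obp99a (850) followed with overlap between neighbours. In control larvae Obp99b (278240 per kilobase) and Obp99c (7577) came first, with no overlap between their libraries or with the members below. Obp44a, Obp56d and Obp56a followed at 3041, 2636 and 2287, and neighbours among these 3 overlapped.

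Each line was then compared with the control, a comparison that asks what differs when SAM import into mitochondria is altered. Tests were made with limma on log2(normalised count + 1) over all tested genes, with Benjamini-Hochberg adjustment and a threshold of 0.05, so a fold change is on that scale and understates the change of low genes. In I172G larvae 5 of 23 tested members were higher than in control (Obp56a, Obp56d, Obp83g, Obp99a and Obp99c) and 4 were lower (Obp44a, Obp56c, Obp56h and Obp56i). The members' shares, 21.7% higher and 17.4% lower, were near those over all genes tested in that comparison, 14.6% higher and 17.6% lower. The median log2 fold change of the tested members was -0.19, and that of all tested genes -0.03. Without control replicate 4 the counts were 5 and 5, with Obp56c lost and Obp50b and Obp50c gained among the lower members. Obp50b and Obp50c share all their exonic bases and cannot be told apart, so they are 1 signal counted as 2 members.

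In P223L larvae 7 of 21 tested members were higher than in control (Obp18a, Obp28a, Obp56b, Obp56c, Obp56h, Obp58c and Obp83cd) and 8 were lower (Obp44a, Obp56a, Obp56d, Obp56e, Obp56i, Obp57d, Obp83g and Obp99b). The members' shares, 33.3% higher and 38.1% lower, were close to those over all genes tested, 36.3% and 42.4%. In SAMC-null larvae 10 of 22 tested members were higher (Obp18a, Obp28a, Obp47a, Obp49a, Obp56b, Obp56c, Obp56h, Obp58c, Obp73a and Obp83cd) and 11 were lower (Obp44a, Obp56a, Obp56d, Obp56e, Obp56i, Obp57d, Obp83ef, Obp83g, Obp99a, Obp99b and Obp99c). That is 45.5% higher and 50% lower, against 38.2% and 43.5% of all genes tested in SAMC-null. The member medians were -0.04 in P223L and 0.09 in SAMC-null, and the medians of all genes -0.06 in both. Obp56e, Obp56i and Obp99b reached the filter in these comparisons through the control libraries, with at most 1 library of a severe line at 10 counts, and Obp73a through the SAMC-null libraries, so they could be called in 1 direction only and the counts hold them for completeness. The 3 comparisons share the control libraries.

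The split of the calls depends on the scaling. With every library scaled to the same sum, the median of all genes was 0.35 in P223L and 0.54 in SAMC-null. The share of calls that were higher was then 65.5% in P223L, in place of 46.2%, and 69.2% in SAMC-null, in place of 46.7%. The members then split into 11 higher and 7 lower in P223L and 11 higher and 9 lower in SAMC-null, and in I172G into 4 and 4. The directions of called members below hold under this scaling unless another value is given.

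**Figure D2:**
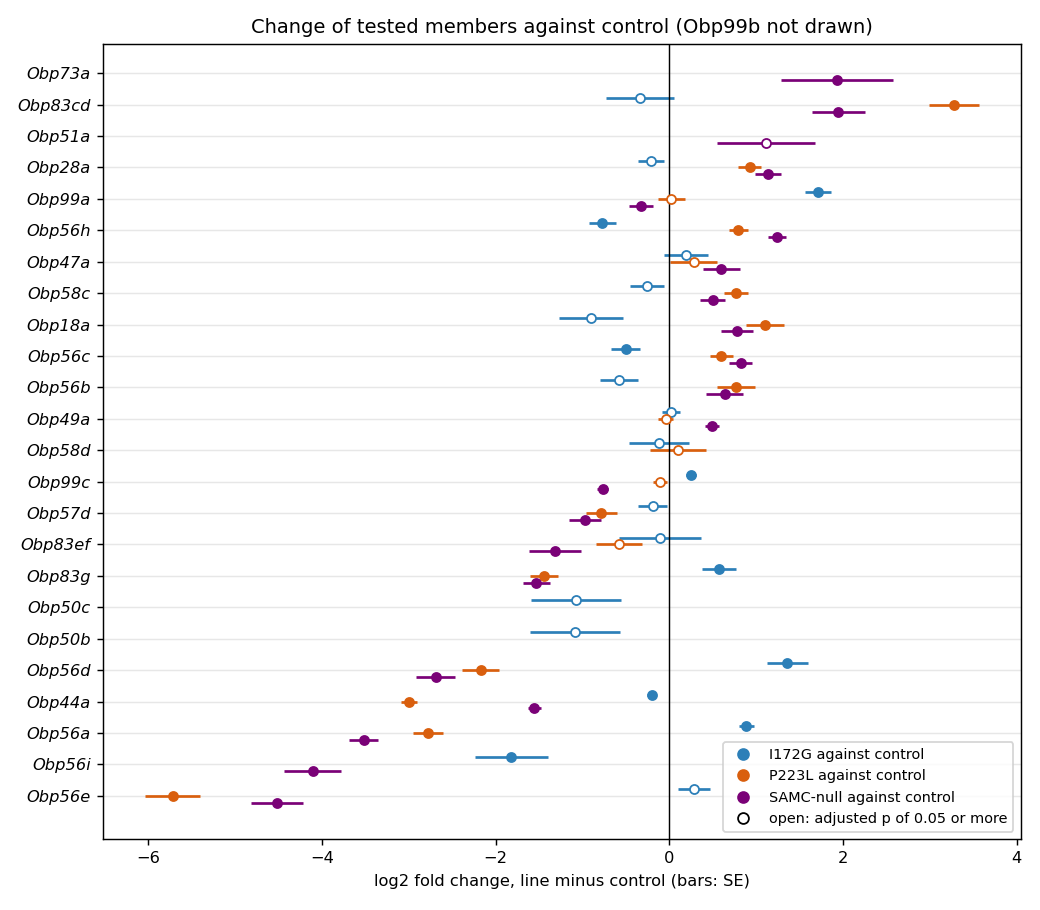
log2 fold change of each tested member against control (points, with bars for the standard error) in I172G, P223L and SAMC-null larvae, with open points for members that did not pass the test. Obp99b is left out because its changes of -15.25 and -16.10 exceed the axis, and Obp56i in P223L because it is listed at 0 there; Obp56e has the lowest points drawn and Obp83cd in P223L the highest.

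The Minus-C member Obp99b, known in adult flies for male-biased expression in the fat body of the head, had the largest change of the family. The gene (FBgn0039685) lies at 3R:29716254-29716896 on the minus strand of BDGP6.54 and has 2 exons of 594 bases together. Obp99b had 179595, 171846, 182825, 187777 and 214765 normalised counts in the I172G libraries (replicates 1 to 5, as in all such lists), and 1.08, 1.09, 3.25, 16.5 and 2.78 in P223L. It had 0.805, 0.776, 1.54, 0.840 and 3.36 in SAMC-null, against 175977, 161481, 108178, 205815 and 174912 in control. The I172G and control libraries overlapped, and every library of both severe lines, at 16.5 or less, lay far below them.

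The log2 fold change of Obp99b was -15.25 ± 0.48 (SE) in P223L (limma, adjusted p = 5e-11) and -16.10 ± 0.25 in SAMC-null (adjusted p = 1.87e-13), and in I172G it was 0.21 ± 0.15 (adjusted p = 0.318). The sizes depend on the pseudocount, with -15.49 to -14.37 in P223L and -16.48 to -14.87 in SAMC-null under the 2 other pseudocounts. The authors' deposited table gives -15.02 and -16.80. In P223L and SAMC-null against control, Obp99b reached the filter through the control libraries. It could only be called lower there, so these calls are not evidence of a direction. P223L was not set against SAMC-null for Obp99b, because too few of those libraries reached 10 counts.

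The genes whose group means lay closest to the pattern of Obp99b, among 10540 genes with a mean of at least 50 in control, were Lsp2, Fbp2, Lsp1beta, Lsp1alpha and Lcp9. The measure was the distance between the log2 group means of the 4 groups after centring on control, and it was 0.883 for Lsp2, 1.28 for Fbp2, 1.71 for Lsp1beta, 1.79 for Lsp1alpha and 1.91 for Lcp9. The Lsp genes encode larval serum proteins, storage proteins that the fat body secretes into the blood, Fbp2 is a fat body protein gene and Lcp9 a larval cuticle protein gene. Lsp2 averaged 13.3 counts in P223L and 6.58 in SAMC-null, against 610600 in control.

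All 6 fat body markers (Lsp1alpha, Lsp1beta, Lsp1gamma, Lsp2, Fbp1 and Fbp2) were lower in both severe lines, and 3 of them, Fbp1, Fbp2 and Lsp2, were higher in I172G. Their summed count was 4399000 to 4778120 in I172G, 63.9 to 326 in P223L, 157 to 327 in SAMC-null and 3591100 to 4302460 in control, and none of the 6 was at 0 in all libraries of a group. They moved with Obp99b, and their part in its change was not tested. Markers of other tissues were lower in the severe lines too. All 4 larval cuticle genes (Lcp1 to Lcp4) were lower in both, with sums of 495025 to 660478 in I172G, 289 to 434 in P223L, 148 to 228 in SAMC-null and 320066 to 587586 in control. In both severe lines 3 of 3 hemocyte, 5 of 5 muscle and 3 of 3 tested salivary gland markers were lower, as were 6 of 6 gut markers in P223L and 5 of 6 in SAMC-null. Between P223L and SAMC-null only 1 of the 6 fat body and 1 of the 4 salivary gland markers reached the filter. Against control most of these 2 lists therefore reached it mainly through the control libraries and could only be called lower in the severe lines. The median log2 fold changes in P223L and SAMC-null were -15.62 and -15.70 for the fat body list, -11.65 and -11.90 for larval cuticle, -9.90 and -9.86 for salivary gland, -2.35 and -2.36 for gut, -1.94 and -2.11 for hemocytes and -1.002 and -1.94 for muscle. In RNA of whole larvae of the same age, fewer cells of a type, less RNA per cell and a different developmental stage cannot be told apart.

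Obp99b lies in a cluster of 4 Obp genes that spans 45.2 kb at 3R:29671657-29716896, with 7 other protein-coding genes between its ends. The cluster is 3.99 to 4.04 Mb from the carrier gene on the same arm. Obp99c (FBgn0039682), a Minus-C gene about which less is known, had 5764, 5918, 6190, 6223 and 5932 normalised counts in I172G, and 5571, 5057, 4262, 4328 and 4338 in P223L. It had 3331, 2983, 2746, 2857 and 2945 in SAMC-null, against 5384, 5106, 4641, 5449 and 4763 in control. All SAMC-null libraries lay below and all I172G libraries above the control libraries, while P223L overlapped with the control.

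Obp99c fell by 0.77 ± 0.06 (SE) on the log2 scale in SAMC-null (limma, adjusted p = 1.49e-07) and rose by 0.25 ± 0.06 in I172G (adjusted p = 0.00861). In P223L the change was -0.11 ± 0.08 (adjusted p = 0.221), which turned to 0.30 with equal library sums (adjusted p = 0.00233), and without P223L replicate 1 the change passed (adjusted p = 0.0383). Set against each other, P223L larvae had more Obp99c than SAMC-null larvae, by 0.66 ± 0.07 (adjusted p = 1.99e-06). Obp99c shares 23 exonic bases with Gycalpha99B on the other strand.

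Obp99a (FBgn0039678), the third Minus-C gene of the cluster, had 2164, 2393, 1742, 1990 and 2345 normalised counts in I172G, and 752, 759, 531, 601 and 673 in P223L. It had 555, 577, 485, 512 and 464 in SAMC-null, against 607, 635, 465, 868 and 728 in control. The I172G libraries all lay above the others, and the severe lines overlapped with the control. In I172G the increase was 1.71 ± 0.15 (SE) on the log2 scale, or 3.26-fold, the largest increase of any tested member there (limma, adjusted p = 3.84e-05), and Obp99a was the 1 member that the authors' deposited adjusted p called in I172G. In P223L the change was 0.02 ± 0.15 (adjusted p = 0.896), and with equal library sums it passed, at 0.43 (adjusted p = 0.0207).

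In SAMC-null the change of Obp99a was -0.32 ± 0.14 (limma, adjusted p = 0.0472). That call rests on single libraries and on the scaling: it was lost in 10 of the refits, without control replicate 1, 2, 4 or 5, without SAMC-null replicate 1, 3, 4 or 5, and under both other scalings (adjusted p 0.0548 to 0.104). Without control replicate 4 it was 0.104, and with equal library sums the sign turned, to 0.28. Obp99d, the last gene of the cluster, was tested in 1 comparison only, because it was near 0 outside the severe lines. Obp99d had 7.65 to 29.3 counts in P223L and 5.31 to 21.6 in SAMC-null, above the 0 to 2.23 of I172G and the 1.07 to 2.84 of control, and the authors' deposited table calls it higher in both severe lines, with log2 fold changes of 3.25 and 2.67.

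**Figure D3:**
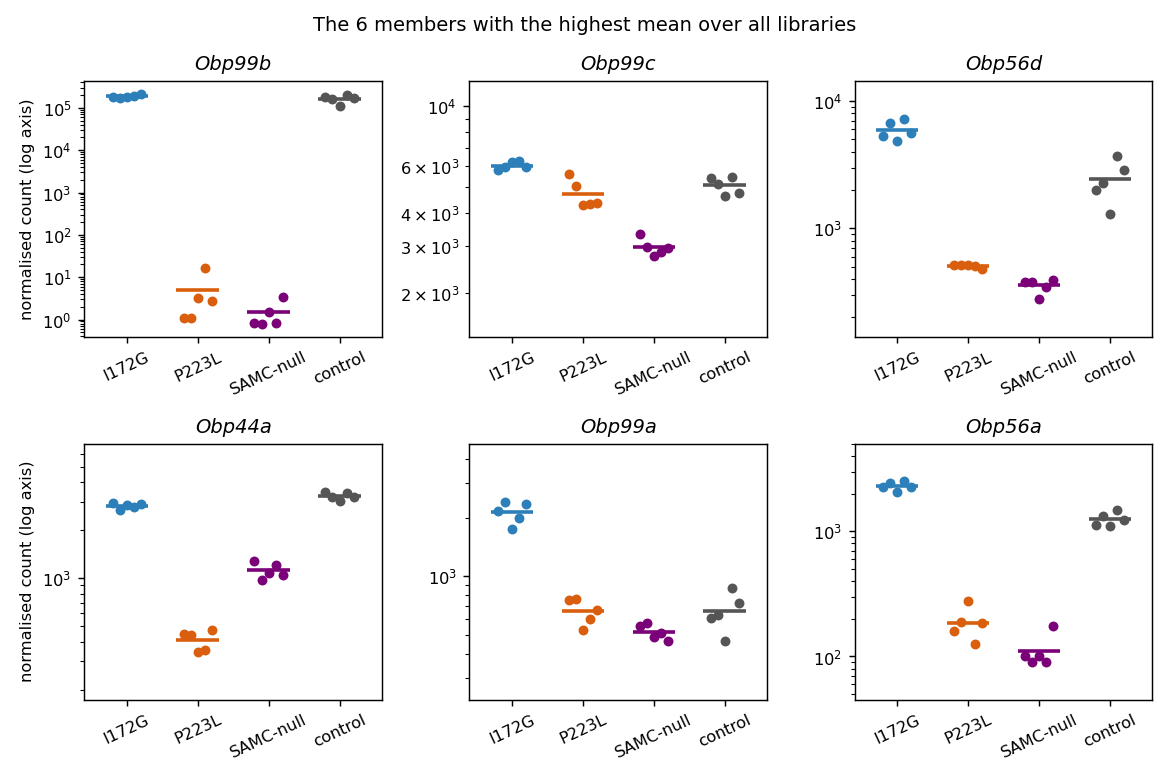
Normalised counts of the 6 members with the highest mean (Obp99b, Obp99c, Obp56d, Obp44a, Obp99a and Obp56a) in each library, on a log axis, with a line for each group mean. Obp99b is near 0 in both severe lines, Obp44a is lowest in P223L, and Obp56d, Obp56a and Obp99a are highest in I172G.

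Obp44a (FBgn0033268, 2R:8134170-8135315, minus strand), a Minus-C gene expressed in glia of the brain, had 2964, 2682, 2861, 2792 and 2923 normalised counts in I172G, and 448, 442, 346, 353 and 469.6 in P223L. It had 1282, 966, 1074, 1214 and 1046 in SAMC-null, against 3482, 3203, 3043, 3402 and 3231 in control. The 4 groups did not overlap, with P223L lowest, then SAMC-null, then I172G, then control.

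Obp44a fell by 3.00 ± 0.09 (SE) on the log2 scale in P223L, or 7.99-fold (limma, adjusted p = 3.36e-11), and by 1.56 ± 0.07 in SAMC-null, or 2.94-fold (adjusted p = 1.27e-09). It fell by 0.20 ± 0.05 in I172G (adjusted p = 0.0143), a call that was lost when all 4 groups entered 1 fit (adjusted p = 0.0606). It was also lower in P223L than in SAMC-null, by 1.44 ± 0.09 (adjusted p = 8.37e-09). Of the glial markers repo, alrm, Gs2 and moody, all 4 were higher in P223L and 3, all but Gs2, in SAMC-null, and their part in the change of Obp44a was not tested. Their summed count was 7257 to 9793 in I172G, 10305 to 10870 in P223L, 7532 to 7678 in SAMC-null and 5297 to 9196 in control, and none of the 4 was at 0. Obp44a shares 205 exonic bases with Pabp2 on the other strand, and whether counting used strand is not given in the sources used here, so reads of the 2 genes may be mixed.

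Among Obps of the adult olfactory sensilla, 2 of 9 in the list were tested in each comparison with control. Obp56d (FBgn0034470, 2R:19702924-19703915, minus strand) had 5274, 6730, 4892, 7190 and 5576 normalised counts in I172G, and 520, 512, 518, 504 and 480 in P223L. It had 382, 378, 281, 348 and 393 in SAMC-null, against 2005, 2291, 1291, 3682 and 2881 in control. All I172G libraries lay above and all libraries of the severe lines below the control libraries, which varied most relative to their mean, with replicate 3 lowest and replicate 4 highest.

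Obp56d rose by 1.36 ± 0.23 (SE) on the log2 scale in I172G, or 2.56-fold (limma, adjusted p = 0.00209). It fell by 2.17 ± 0.21 in P223L, or 4.51-fold (adjusted p = 1.01e-06), and by 2.69 ± 0.22 in SAMC-null, or 6.46-fold (adjusted p = 2.21e-07). The salivary gland markers Sgs1, Sgs3, Sgs4 and Sgs5, glue protein genes, varied in the same direction: their summed count was 8493 to 30510 in I172G, 14.0 to 34.0 in P223L, 26.7 to 37.9 in SAMC-null and 1195 to 10683 in control. The fat body and larval cuticle lists varied this way too. In I172G 3 of 6 and 3 of 4 of their genes were higher, and in both severe lines 6 of 6 and 4 of 4 were lower. Of the 4 salivary gland markers, 2 were higher in I172G, 3 were lower in each severe line, and Sgs5 was at 0 in all libraries of both severe lines. Most of those 3 reached the filter mainly through the control libraries and could only be called lower. The part of the salivary gland, fat body and larval cuticle lists in the change of Obp56d was not tested.

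Obp28a (FBgn0011283, 2L), an abundant antennal Obp in adults, had 182 to 255 normalised counts in I172G, 408 to 488 in P223L, 460 to 686 in SAMC-null and 187 to 323 in control. It rose by 0.93 ± 0.13 (SE) on the log2 scale in P223L (limma, adjusted p = 3.03e-05) and by 1.14 ± 0.15 in SAMC-null (adjusted p = 1.61e-05), with no overlap with control, and its change in I172G was -0.21 ± 0.15 (adjusted p = 0.308). Obp28a and Obp56d thus moved in opposite directions in the severe lines. Of the markers of sensory organ support cells and mechanosensory neurons (nompA, nompC, iav and nan), all 3 tested were higher in both severe lines, with sums of 202 to 234 in I172G, 483 to 542 in P223L, 543 to 591 in SAMC-null and 197 to 314 in control. Of the 5 neuron markers elav, nSyb, Syt1, brp and para, 4 were higher in both, with sums of 7158 to 7945 in I172G, 15205 to 17805 in P223L, 16354 to 17521 in SAMC-null and 6587 to 7967 in control. No gene of either list was at 0 throughout a group. The sums of both lists were higher in the severe lines, as was Obp28a, and their part in its change and in that of other members was not tested.

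Of the 3 taste sensilla members, Obp49a and Obp57d were tested. Obp49a, through which bitter compounds suppress the response to sugar in adult taste sensilla, averaged 286 ± 37.3 in I172G, 273 ± 15.3 in P223L, 397 ± 26.3 in SAMC-null and 282 ± 27.6 in control (SD, n = 5 each). It rose in SAMC-null by 0.49 ± 0.08 (SE) on the log2 scale (limma, adjusted p = 0.000108), and was lower in P223L than in SAMC-null by 0.54 ± 0.06 (adjusted p = 4.89e-06). Against control its change in P223L was -0.04 ± 0.08 (adjusted p = 0.648), which turned to 0.37 and passed with equal library sums (adjusted p = 0.00212). Obp57d, which takes part in the choice of egg-laying sites, averaged 64.6 in I172G, 42.6 in P223L, 37.6 in SAMC-null and 75.03 in control. Its log2 fold changes were -0.79 ± 0.18 in P223L (adjusted p = 0.00134) and -0.97 ± 0.19 in SAMC-null (adjusted p = 0.000423), and both calls were lost with equal library sums (adjusted p 0.0619 and 0.0782). The 1488 exonic bases of Obp57d all lie within Cpr57A on the same strand, so its value is uncertain.

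The 9 Obp56 genes lie within 171.0 kb on 2R, at 19697723-19868714, with 4 other protein-coding genes among them. Called members of the cluster did not all move in 1 direction. In both severe lines Obp56a, Obp56d, Obp56e and Obp56i were lower and Obp56b, Obp56c and Obp56h higher than in control, and Obp56f and Obp56g were tested nowhere. In I172G Obp56a and Obp56d were higher, Obp56c, Obp56h and Obp56i were lower, and Obp56b and Obp56e did not pass. Obp56e in the severe lines and Obp56i in every line reached the filter through the control libraries and could only be called lower. The mixed directions therefore rest on the other called members.

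**Figure D4:**
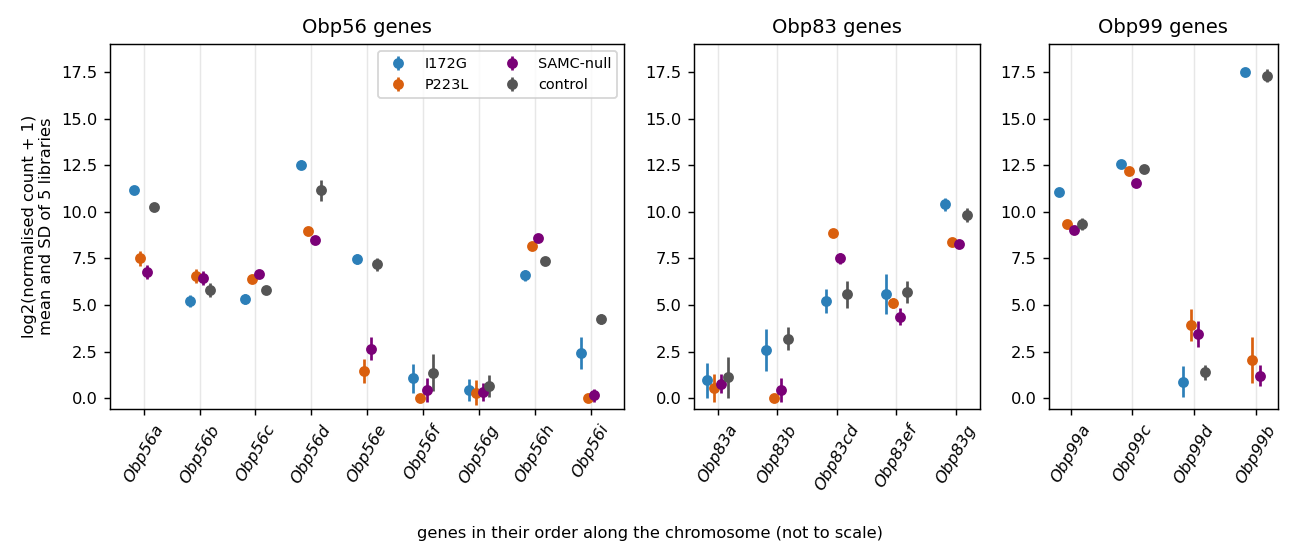
Mean log2(normalised count + 1) with SD (n = 5) of the genes of the Obp56, Obp83 and Obp99 clusters, in chromosome order, for I172G, P223L, SAMC-null and control larvae. Within the Obp56 cluster the severe lines lie below control for Obp56a, Obp56d, Obp56e and Obp56i and above it for Obp56b, Obp56c and Obp56h.

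Obp56a (FBgn0034468), whose relative in the blowfly Phormia regina carries fatty acids in the mouthparts, had 2273, 2417, 2060, 2500.4 and 2263 normalised counts in I172G, and 159, 187, 276, 126 and 185 in P223L. It had 99.99, 90.5, 100.5, 90.8 and 174 in SAMC-null, against 1115, 1336, 1093, 1469 and 1241 in control. The I172G libraries were all above and the severe lines all below the control. Obp56a rose by 0.89 ± 0.09 (SE) on the log2 scale in I172G (limma, adjusted p = 8.62e-05). It fell by 2.78 ± 0.17 in P223L, or 6.86-fold (adjusted p = 1.35e-08), and by 3.52 ± 0.17 in SAMC-null, or 11.5-fold (adjusted p = 1.15e-09).

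Obp56h (FBgn0034475), which in adult males affects mating and pheromones, had 66.9, 95.03, 112, 109 and 102 normalised counts in I172G, and 302, 326, 288, 261 and 251 in P223L. It had 413, 437, 376, 366 and 353 in SAMC-null, against 133, 192, 175, 162 and 163 in control. The order of the groups was thus the reverse of that of Obp56a, with I172G lowest and SAMC-null highest, and no group overlapped with another. Obp56h fell by 0.77 ± 0.16 (SE) on the log2 scale in I172G (limma, adjusted p = 0.00478). It rose by 0.79 ± 0.11 in P223L (adjusted p = 2.79e-05) and by 1.24 ± 0.10 in SAMC-null (adjusted p = 2.05e-07).

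Obp56c (FBgn0046879) had 45.2, 43.6, 44.6, 30.5 and 32.9 normalised counts in I172G, and 79.2, 92.1, 79.7, 93.3 and 80.0 in P223L. It had 93.8, 105, 83.1, 104 and 110.0 in SAMC-null, against 50.3, 65.2, 58.1, 57.1 and 48.4 in control. The I172G libraries lay just below the control and those of the severe lines above it. Obp56c rose by 0.60 ± 0.13 (SE) on the log2 scale in P223L (limma, adjusted p = 0.000924) and by 0.82 ± 0.13 in SAMC-null (adjusted p = 6.93e-05). Its fall of 0.51 ± 0.17 in I172G (adjusted p = 0.0427) was lost without any 1 library of the 10 other than I172G replicate 1 and with median-ratio rescaling (adjusted p 0.0513 to 0.1). Obp56b averaged 37.0 in I172G, 96.6 in P223L, 88.2 in SAMC-null and 56.2 in control, with log2 fold changes of 0.77 ± 0.22 in P223L (adjusted p = 0.00614) and 0.64 ± 0.22 in SAMC-null (adjusted p = 0.016).

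The list of Obps found in the seminal fluid of adult males held 6 members, of which Obp56e and Obp56i were tested in every comparison with control and Obp51a in that of SAMC-null. Obp56e (FBgn0034471) had 187, 174, 157, 234 and 141 normalised counts in I172G, and 1.09, 1.10, 2.16, 1.03 and 4.60 in P223L. It had 2.39, 7.81, 4.55, 9.13 and 5.00 in SAMC-null, against 129, 112, 123, 171 and 204 in control. The severe lines lay below all control libraries and I172G overlapped with the control. Obp56e fell by 5.72 ± 0.32 (SE) on the log2 scale in P223L (limma, adjusted p = 5.37e-09) and by 4.52 ± 0.30 in SAMC-null (adjusted p = 2.3e-08), and its change in I172G was 0.29 ± 0.19 (adjusted p = 0.253). Other pseudocounts gave -6.03 to -4.66 in P223L and -4.64 to -3.97 in SAMC-null. In these comparisons Obp56e reached the filter through the control libraries alone. It could only be called lower there, so these calls are not evidence of a direction. It shares 449 exonic bases with asRNA:CR44509 on the other strand, so reads of the pair cannot be told apart if counting ignored strand.

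Obp56i, the last gene of the cluster, had 5.30, 5.24, 0.961, 7.80 and 5.84 normalised counts in I172G and was listed at 0 in all 5 P223L libraries. It had 0.687 in 1 SAMC-null library and 0 in the other 4, against 15.8, 18.97, 14.7, 18.0 and 24.6 in control. All 5 control libraries lay above every library of the lines. Because Obp56i reached the filter through the control libraries alone, it could only be called lower, and its calls are not evidence of a direction. The log2 difference from control was -1.82 ± 0.42 (SE) in I172G and -4.11 ± 0.33 in SAMC-null, where other pseudocounts gave -4.97 to -2.42, and no fold is given for P223L, a group at 0.

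The 4 testis markers dj, ocn, Mst84Dc and Mst87F were lower in all 3 lines. Between P223L and SAMC-null 0 of the 4 reached the filter. Against control they reached it mainly through the control libraries and could only be called lower in the severe lines. Their summed count was 480 to 833 in I172G, 0 to 13.8 in P223L, 0 to 3.33 in SAMC-null and 711 to 1819 in control, with Mst84Dc and ocn at 0 in every library of both severe lines. The testis markers moved with Obp56i. Most gut markers did too, with 4 of 6 lower in I172G, 6 of 6 in P223L and 5 of 6 in SAMC-null. The part of either list in the change of Obp56i was not tested. Obp51a, the third seminal fluid member, had 2.38 to 5.33 counts in I172G, 4.55 to 10.9 in P223L, 2.99 to 20.8 in SAMC-null and 1.09 to 12.0 in control, and its change of 1.11 ± 0.56 in SAMC-null did not pass (limma, adjusted p = 0.0856) but did with equal library sums, with all 4 groups in 1 fit, and without control replicate 3 or SAMC-null replicate 3 (adjusted p 0.0147 to 0.0377).

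In the Obp83 cluster, 5 genes within 140.1 kb on 3R, the neighbours Obp83cd, Obp83ef and Obp83g were tested. Obp83b, an antennal Obp below the filter that was singled out after its values were seen, was listed at 0 in all 5 P223L libraries and had 0 to 1.65 counts in SAMC-null, against 3.53 to 12.3 in control, and the authors' deposited table calls it lower in both. The dimer Obp83cd (FBgn0046878, 3R:6108134-6109733, plus strand) had 47.9, 57.2, 47.7, 19.7 and 24.9 normalised counts in I172G, and 546, 505, 420.4, 399 and 436 in P223L. It had 245, 139, 167, 178 and 191 in SAMC-null, against 30.8, 44.8, 28.3, 105 and 52.0 in control. P223L was highest, SAMC-null lay between P223L and control without overlap, and I172G overlapped with the control, whose highest value was in replicate 4.

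Obp83cd rose by 3.28 ± 0.29 (SE) on the log2 scale in P223L, or 9.69-fold, the largest increase among the tested members (limma, adjusted p = 3.74e-07), and by 1.94 ± 0.31 in SAMC-null, or 3.84-fold (adjusted p = 7.35e-05). Its change in I172G was -0.34 ± 0.39 (adjusted p = 0.535). The other dimer, Obp83ef, encoded on the opposite strand with 92 shared exonic bases, averaged 58.0 ± 37.4 in I172G, 34.2 ± 7.01 in P223L, 20.7 ± 6.91 in SAMC-null and 53.9 ± 18.0 in control (SD, n = 5 each). It fell by 1.32 ± 0.30 in SAMC-null (adjusted p = 0.00138), and its change in P223L was -0.58 ± 0.27 (adjusted p = 0.0606), which passed without control replicate 5 or P223L replicate 3 (adjusted p = 0.00222 and 0.043).

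Obp83g, next to Obp83ef, averaged 1373 ± 302 in I172G, 334 ± 44.6 in P223L, 312 ± 28.6 in SAMC-null and 928 ± 225 in control. It fell by 1.44 ± 0.16 (SE) on the log2 scale in P223L (limma, adjusted p = 4.2e-06) and by 1.54 ± 0.16 in SAMC-null (adjusted p = 1.42e-06). Its rise of 0.57 ± 0.20 in I172G (adjusted p = 0.0448) was lost without I172G replicate 1, 2, 3 or 4, without control replicate 1, 2, 3 or 5, and with equal library sums (adjusted p 0.0513 to 0.102).

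The Plus-C subgroup held 13 members, most of them at low counts. Obp58c averaged 46.6 ± 10.8 in I172G, 93.7 ± 10.2 in P223L, 77.8 ± 9.81 in SAMC-null and 55.0 ± 8.25 in control (SD, n = 5 each). It rose by 0.77 ± 0.14 (SE) on the log2 scale in P223L (limma, adjusted p = 0.000301) and by 0.50 ± 0.14 in SAMC-null (adjusted p = 0.00699). Its neighbours Obp58b and Obp58d, within the same 3.1 kb, had group means of 6.43 to 12.4 and 8.44 to 12.2, and did not pass where they were tested (limma, adjusted p 0.609 to 0.964 and 0.205 to 0.815). Obp50b and Obp50c share all their 1648 exonic bases and cannot be told apart. Obp50b had 2.36 to 15.3 counts in I172G, 0 to 2.05 in P223L, 0 to 1.55 in SAMC-null and 4.67 to 21.5 in control. In I172G the change of Obp50b did not pass (adjusted p = 0.126) but did without control replicate 4, its lowest control (adjusted p = 0.0248). The authors' deposited table calls Obp50b lower in P223L and SAMC-null, with log2 fold changes of -4.70 and -5.09.

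The remaining tested members were Obp18a, Obp47a and Obp73a. Obp18a (FBgn0030985, X) had 18.8, 4.84, 11.05, 18.2 and 19.6 normalised counts in I172G, and 66.1, 66.9, 56.6, 37.6 and 55.4 in P223L. It had 50.4, 43.5, 39.8, 45.5 and 41.7 in SAMC-null, against 18.8, 21.9, 24.7, 33.9 and 29.9 in control. All libraries of the severe lines lay above the control, and I172G overlapped with it. Obp18a rose by 1.10 ± 0.22 (SE) on the log2 scale in P223L (limma, adjusted p = 0.000453) and by 0.78 ± 0.18 in SAMC-null (adjusted p = 0.0018), and its change in I172G was -0.90 ± 0.37 (adjusted p = 0.0812).

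Obp73a, a member with close relatives across insects, had 1.16 to 16.9 counts in I172G, 5.15 to 28.8 in P223L, 10.1 to 22.2 in SAMC-null and 0 to 16.0 in control. The SAMC-null and control libraries overlapped. Their log2 difference was 1.93 ± 0.64 (SE), or 1.263 to 2.218 with other pseudocounts, but Obp73a reached the filter through the SAMC-null libraries, so the call is not evidence of a direction. Obp73a shares 63 exonic bases with Ogdh on the same strand. Obp47a averaged 23.9 in I172G, 25.96 in P223L, 31.5 in SAMC-null and 21.05 in control, and its rise of 0.60 ± 0.22 in SAMC-null (adjusted p = 0.022) was lost without control replicate 1 or without SAMC-null replicate 1 or 3 (adjusted p 0.0504 to 0.0526).

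The lines were also compared with one another. Between the severe lines 6 of 22 tested members were higher in P223L than in SAMC-null (Obp56a, Obp56d, Obp83cd, Obp83ef, Obp99a and Obp99c) and 3 were lower (Obp44a, Obp49a and Obp56h), while 22.4% of all tested genes were higher and 25.1% lower. Obp44a (-1.44 ± 0.09) and Obp83cd (1.33 ± 0.13, SE, limma, adjusted p = 4.77e-07) were the 2 members with a difference of at least 2-fold. The count of lower members was 6 without SAMC-null replicate 3. With equal library sums the median of all genes was -0.21 in place of -0.02, the share of calls that were higher was 16.8% in place of 47.2%, and the members split into 4 higher and 5 lower. The calls for Obp83ef and Obp99a were lost under that scaling (adjusted p = 0.0519 and 0.154) and with all 4 groups in 1 fit (adjusted p = 0.157 and 0.0517).

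Against P223L, 9 of 21 tested members were higher in I172G (Obp44a, Obp56a, Obp56d, Obp56e, Obp57d, Obp83g, Obp99a, Obp99b and Obp99c) and 7 were lower (Obp18a, Obp28a, Obp56b, Obp56c, Obp56h, Obp58c and Obp83cd). That is 42.9% higher and 33.3% lower among the members, against 42.9% and 38% of all genes. Against SAMC-null, 10 of 21 were higher in I172G, which added Obp83ef to the first list, and 9 were lower, which added Obp49a and Obp73a to the second, while 43.1% and 39.7% of all genes were. Obp56e and Obp99b reached the filter here through the I172G libraries, and Obp73a mainly through the SAMC-null libraries. These 3 could be called in 1 direction only, and the counts hold them for completeness. With equal library sums the medians of all genes were -0.39 and -0.59, the shares of calls that were higher 33.5% and 29.3% in place of 53.0% and 52.1%, and the members split into 7 and 9 against P223L and 8 and 10 against SAMC-null. The difference of Obp99c between I172G and P223L was 0.36 ± 0.07 (SE, limma, adjusted p = 0.000518) and turned to -0.08 under that scaling. Obp57d was no longer called against either severe line there (adjusted p = 0.31 and 0.354), and the call of Obp83ef against SAMC-null was lost there and without I172G replicate 1, 3 or 5 or SAMC-null replicate 1 or 3 (adjusted p 0.0534 to 0.226).

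The largest direct differences were those of Obp99b, at 15.46 ± 0.46 (SE) on the log2 scale against P223L (limma, adjusted p = 1.31e-11) and 16.30 ± 0.21 against SAMC-null (adjusted p = 3.77e-14). Obp56e followed with 6.01 ± 0.30 and 4.81 ± 0.28 (adjusted p = 1.01e-09 and 4.55e-09). Obp99b and Obp56e reached the filter through the I172G libraries, so these calls are not evidence of a direction. Obp83cd was lower in I172G than in P223L by a log2 difference of -3.61 ± 0.26 (adjusted p = 3.66e-08) and than in SAMC-null by -2.28 ± 0.28 (adjusted p = 6.29e-06). Obp18a had differences of -2.003 ± 0.34 (adjusted p = 0.00012) and -1.68 ± 0.32 (adjusted p = 0.000334).

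Other genes of chemical sensing were mostly too low to test. Of 61 odorant receptor genes, 7 were tested in I172G with 1 lower, 10 in P223L with 3 higher, and 13 in SAMC-null with 9 higher. As given above, 36.3% of all tested genes were higher and 42.4% lower in P223L, 38.2% and 43.5% in SAMC-null, and 14.6% and 17.6% in I172G, and the counts of this and the next lists are to be read against these shares. The 3 of 10 odorant receptors in P223L lie near that share. More odorant, gustatory and ionotropic receptors were tested in the severe lines than in I172G, against the same control libraries. Some therefore reached the filter only with libraries of the severe lines, which favours a higher call. The counts of these receptors in the severe lines are thus not evidence of a direction. Or45a averaged 15.8 ± 5.96 counts in I172G, 131 ± 11.7 in P223L, 166 ± 14.1 in SAMC-null and 20.4 ± 8.43 in control (SD, n = 5 each), with log2 fold changes of 2.72 ± 0.26 (SE) in P223L and 3.06 ± 0.26 in SAMC-null (limma, adjusted p = 8.39e-07 and 2.31e-07). Of 63 ionotropic receptor genes, 16 were tested in I172G with 1 higher and 4 lower, 19 in P223L with 10 higher and 1 lower, and 18 in SAMC-null with 10 higher and 2 lower. Ir76b, a coreceptor for taste and smell, averaged 5.97 ± 4.32 in I172G, 49.9 ± 4.93 in P223L, 62.1 ± 3.07 in SAMC-null and 6.74 ± 1.96 in control. Its log2 differences from control were 2.76 ± 0.24 in P223L and 3.07 ± 0.23 in SAMC-null (adjusted p = 3.42e-07 and 6.31e-08). With a control mean under 10, Ir76b reached the filter mainly through the severe lines, so these calls are not evidence of a direction.

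Of 59 gustatory receptor genes, 10 were tested in I172G with 3 lower, 12 in P223L with 6 higher and 2 lower, and 14 in SAMC-null with 9 higher and 1 lower. Of 19 CheA and CheB genes, which encode small secreted proteins of taste and other sense organs, 4 were tested in I172G with 1 in each direction, 5 in P223L with 3 higher and 1 lower, and 4 in SAMC-null with 1 in each direction. Among other carriers and cofactors, 3 of 5 were tested. Snmp2, a membrane protein related to the pheromone cofactor Snmp1, rose by 1.57 ± 0.12 (SE) on the log2 scale in P223L and 1.85 ± 0.11 in SAMC-null (limma, adjusted p = 8.71e-08 and 8.79e-09). The takeout gene to, which encodes a secreted carrier of another family, fell by 2.79 ± 0.24 in P223L, by 2.22 ± 0.23 in SAMC-null and by 0.72 ± 0.17 in I172G (adjusted p = 3.16e-07, 1.34e-06 and 0.009). The Or coreceptor Orco, Ir25a, Ir76b and Ir8a, which mark chemosensory neurons, had a summed count of 22.8 to 57.4 in I172G, 118 to 153 in P223L, 160 to 195 in SAMC-null and 25.99 to 46.7 in control, none at 0 throughout a group. All 3 of them that were tested in the severe lines were higher in both. Only 1 of the 4 was tested in I172G against control. The others called in the severe lines, Ir76b among them, reached the filter only with libraries of those lines. This favours a higher call, and Ir76b, as given above, could only be called higher.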

How the data were processed

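Ribosomal RNA was removed from total RNA of whole larvae before sequencing with paired 75-base reads, per the labels' protocols. The authors used Salmon 0.11.3, DESeq2 1.26.0 and the BDGP6 build, per the submitters' processing notes. The deposited signal is the authors' normalised read count per gene, not whole and on 1 scale for all 20 libraries, so no count test was used and no counting interval is given. Each deposited table further gives the log2 fold change of a line over control, a Wald score against a 2-fold change with a weight, and p-values. For the 6 comparisons, limma 3.58.1 in R 4.3.3 was fitted with an intensity trend to log2(value + 1) of genes that reached 10 in 5 or more of the 10 libraries. It was fitted without a replicate term, and p-values were adjusted over all genes tested. The test was checked on simulated data. Positions, strands and lengths came from Ensembl release 115 (BDGP6.54), where all 51 members matched. Sequences were not used here.

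The members, role lists and marker lists were chosen with earlier results of these data known. Values per library are given for the 6 members with the highest means and, against control, for the 2 largest called increases and decreases with a group mean of at least 50. Fold changes are given for called members that changed at least 2-fold, up to 10 a comparison, and other members are given by ranges or means. Alternatives were pseudocounts of 0.5 and 4, no filter, a minimum of 50, median-ratio rescaling, leaving out each library, a replicate block, 1 fit of all 4 groups and the authors' adjusted p. Equal library sums were added after seeing the data.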

Additional observations from a re-analysis of the deposited data

Results flagged for a closer look

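In 44 groups of 5 libraries (11 members in 4 groups), 1 library lay far from the other 4 of its group: Obp56a had 173.8 normalised counts in SAMC-null replicate 5, where the other 4 SAMC-null libraries had 90.5 to 100.5. Chance alone would mark about 1 in 20 such groups.

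For 7 members the I172G libraries moved one way from control and the libraries of a severe line the other way, and limma's test of the direct difference between the lines passed. On the log2 scale, I172G minus P223L was 3.53 for Obp56d, 3.66 for Obp56a, 2.02 for Obp83g, -1.56 for Obp56h and -1.10 for Obp56c. I172G minus SAMC-null was 4.05 for Obp56d, 4.40 for Obp56a, 2.11 for Obp83g, -2.01 for Obp56h and -1.32 for Obp56c. For Obp99a and Obp99c this held between I172G and SAMC-null, with differences of 2.03 and 1.02. All 7 members were picked by opposite calls against the same control libraries, so the direct test is not separate support. The I172G values of Obp83g and Obp56c, and the SAMC-null value of Obp99a, against control rest on calls that were lost without single libraries.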

How the results depend on the processing

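Across 74 results on named members, 1359 refits were made, and the 12 counts of called members were recomputed under each alternative. Leaving out 1 library at a time gave, for members higher and lower, 4 to 5 and 3 to 5 in I172G against control, 7 to 7 and 8 to 9 in P223L against control, 9 to 11 and 10 to 11 in SAMC-null against control, 6 to 7 and 3 to 6 in P223L against SAMC-null, 9 to 10 and 7 to 7 in I172G against P223L, and 9 to 10 and 9 to 10 in I172G against SAMC-null. With a minimum value of 50, 2 members were lower in I172G than in control. With no filter on low values the counts were 11 higher and 15 lower in P223L against control, 6 lower in P223L against SAMC-null, 15 higher and 11 lower in I172G against P223L, and 14 lower in I172G against SAMC-null; more genes are then tested. The authors' deposited adjusted p, which tests for more than a 2-fold change, called 1 member higher and 0 lower in I172G, 2 higher and 10 lower in P223L, and 2 higher and 10 lower in SAMC-null. With equal library sums 11 members were higher in P223L than in control and 5 lower in P223L than in SAMC-null.

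Signs turned for Obp99a in P223L against control, at -0.00014 without control replicate 1, -0.096 without control replicate 3, -0.026 without P223L replicate 1 and -0.029 without P223L replicate 2, within a range of -0.096 to 0.129 over the left-out libraries. With equal library sums they turned for Obp99c in P223L against control (0.30), Obp99a in SAMC-null against control (0.28) and Obp99c in I172G against P223L (-0.084); the cause was not tested. Over all genes, limma called 1377 lower in I172G than in control with a replicate block (2151 without it), 1358 to 1429 without control replicate 2, 3 or 5, and 1852 lower in P223L than in SAMC-null with all 4 groups in 1 fit (2798 otherwise). Equal replicate numbers did not pair the libraries: the correlation of their deviations over 12011 genes was -0.233 to 0.102. The replicate block left 0.084 as the adjusted p of Obp56c and 0.0514 as that of Obp83g in I172G against control, and 0.0478 as that of Obp83ef in P223L against control. Without control replicate 4 the members split into 5 higher and 5 lower in I172G, 7 and 8 in P223L, and 10 and 10 in SAMC-null. The 5 lower in I172G count both Obp50b and Obp50c, which cannot be told apart. The 24 members under 10 counts were left out by the filter, and their values show neither a difference nor its absence by the main test.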
